A study of Mus musculus with 8 samples.

Results

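The interferon-induced gene families are the genes that cells switch on to resist viruses and intracellular microbes. Members were taken by symbol from the RefSeq annotation of GRCm38.p6: protein-coding genes whose symbol starts with Ifit, Isg, Oas, Gbp or Irgm, or with Ifi followed by a digit, together with Mx1, Mx2, Rsad2, Usp18 and Bst2. This gave 61 of 21887 protein-coding genes on the main chromosomes. Mx1, Mx2, Oas1b and Gbp11 are transcribed pseudogenes in this annotation and Gbp2-ps and Ifi203-ps are pseudogenes, so these 6 symbols were not members. The name refers to what is known of the genes elsewhere, since no RNA was measured here, and Ifitm5, Ifitm7, Ifitm10 and Isg20l2 are named after likeness to a family.

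FOS binding was mapped by chromatin immunoprecipitation and sequencing (ChIP-seq) in microglia, the resident macrophages of the brain, from the cortex of mice aged 30 postnatal days. IL-33, a cytokine that glia release as an alarm signal, had been given into the cerebral ventricle of 1 hemisphere 4 h earlier, and the microglia were then purified on ice by homogenisation, a Percoll gradient and flow sorting. There were 4 FOS libraries and 4 input libraries, 1 of each from every mouse, and no source used here states strain or genotype. All mice received IL-33 and no vehicle library was analysed here, so a region shows where FOS was found after IL-33 and not a response to it.

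Values came as a single list of 32773 regions on mm10, which the authors made by joining their merged FOS peaks with a second peak list. Of these regions, 31473 held a FOS peak. The second list, named in the file header for IL-33 against vehicle and here called the IL-33 list, filled 2848 regions, and no source used here states its assay. A region with peaks of both lists is called shared. A region was assigned to the coding gene with the body closest to the region's centre, up to a limit of 100 kb, and to every gene where bodies tied. The score is the authors' statistic for a FOS peak, on a scale that no source used here states. The number of calls, from 1 to 4, ends the name of a FOS peak and was taken to count the FOS libraries with that peak, which is an inference. No column belonged to a single library, so depth is unknown, no value has a replicate error and no difference was tested. Intervals are exact 95% Clopper-Pearson intervals that cover counting error only, and they treat neighbouring genes as independent although 48 of the 61 genes lie in 10 loci of 2 or more.

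Type I interferons bind the receptor IFNAR and act through the kinases JAK1 and TYK2, which activate transcription factors that bind the interferon-stimulated response element, ISRE, in the promoters of such genes. Interferon gamma acts at gamma-activated sites, called GAS. FOS pairs with JUN proteins to form AP-1, which binds a different motif and answers to MAP kinase signals. Microglia are known to express many interferon-induced genes in infection, ageing and neurodegeneration.

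Promoters of 6 members are shown because they hold these motifs beside FOS regions in different arrangements, and that of Isg15 because it holds ISRE matches and no FOS region. Each window runs from 250 bases before to 50 bases after an annotated start, 5′ to 3′ on the gene's strand, and comes from RefSeq on GRCm38.p6. Capitals mark matches to AP-1 (TGANTCA), to GAS (TTCNNNGAA) and to the ISRE core, which was searched as 2 copies of GAAA with any 2 bases between them. All were searched on both strands, and overlapping matches run together in capitals.
Gbp7, plus strand, chr3:142530086-142530385: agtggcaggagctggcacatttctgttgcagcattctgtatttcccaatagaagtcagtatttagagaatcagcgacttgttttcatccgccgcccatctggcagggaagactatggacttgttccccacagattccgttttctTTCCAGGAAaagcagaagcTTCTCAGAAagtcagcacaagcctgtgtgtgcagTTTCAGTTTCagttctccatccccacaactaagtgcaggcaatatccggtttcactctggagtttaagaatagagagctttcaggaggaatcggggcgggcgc
Gbp2, plus strand, chr3:142620413-142620712: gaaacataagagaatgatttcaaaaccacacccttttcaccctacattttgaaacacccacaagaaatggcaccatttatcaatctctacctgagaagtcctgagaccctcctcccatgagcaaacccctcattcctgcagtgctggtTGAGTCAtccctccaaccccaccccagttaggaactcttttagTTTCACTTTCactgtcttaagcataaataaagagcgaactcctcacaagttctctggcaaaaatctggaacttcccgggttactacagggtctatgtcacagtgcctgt
Irgm2, plus strand, chr11:58214727-58215026: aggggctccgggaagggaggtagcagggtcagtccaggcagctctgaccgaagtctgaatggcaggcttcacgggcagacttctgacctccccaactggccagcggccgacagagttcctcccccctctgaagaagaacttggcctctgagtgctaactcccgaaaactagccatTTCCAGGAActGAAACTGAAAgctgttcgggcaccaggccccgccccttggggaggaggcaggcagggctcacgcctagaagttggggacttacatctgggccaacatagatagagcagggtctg
Ifit3, plus strand, chr19:34583279-34583578: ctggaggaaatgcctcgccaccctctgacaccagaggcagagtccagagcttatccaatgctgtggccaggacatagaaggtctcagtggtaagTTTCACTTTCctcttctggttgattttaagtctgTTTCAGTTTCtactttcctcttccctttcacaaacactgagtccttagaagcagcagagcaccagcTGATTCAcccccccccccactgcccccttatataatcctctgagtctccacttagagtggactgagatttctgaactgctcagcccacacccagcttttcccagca
Ifit3b, plus strand, chr19:34607707-34608006: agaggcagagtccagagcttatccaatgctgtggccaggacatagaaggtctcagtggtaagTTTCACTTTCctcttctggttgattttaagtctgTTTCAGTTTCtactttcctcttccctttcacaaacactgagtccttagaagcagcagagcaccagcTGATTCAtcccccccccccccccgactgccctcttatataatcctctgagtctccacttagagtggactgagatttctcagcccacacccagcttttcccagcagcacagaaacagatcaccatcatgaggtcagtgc
Bst2, minus strand, chr8:71537423-71537722: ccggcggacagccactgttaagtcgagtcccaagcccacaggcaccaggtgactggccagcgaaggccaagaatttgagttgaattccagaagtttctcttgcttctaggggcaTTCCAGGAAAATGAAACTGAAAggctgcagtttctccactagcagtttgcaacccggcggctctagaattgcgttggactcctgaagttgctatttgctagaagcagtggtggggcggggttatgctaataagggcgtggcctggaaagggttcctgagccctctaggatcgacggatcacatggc
Isg15, minus strand, chr4:156200769-156201068: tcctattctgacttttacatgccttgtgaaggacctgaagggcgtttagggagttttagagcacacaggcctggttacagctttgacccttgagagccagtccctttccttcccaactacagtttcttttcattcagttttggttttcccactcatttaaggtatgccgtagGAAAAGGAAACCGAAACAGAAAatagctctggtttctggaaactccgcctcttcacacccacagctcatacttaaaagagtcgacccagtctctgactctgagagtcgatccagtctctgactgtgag

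FOS regions were given to all 10 Gbp genes and to 5 of 6 Ifit genes, but to 3 of 11 Oas genes and 4 of 11 genes of the Ifi200 family. Over all families, 38 of 61 genes (62.3%, 95% interval 49.0 to 74.4) had at least 1 FOS region, against 50.6% of all coding genes, a value inside that interval. With FOS regions of 4 calls the count was 14 of 61 (23.0%, 13.2 to 35.5), against 17.5% of all coding genes. When regions had to score at or above 20.2, the median of all FOS regions, the order turned: 15 of 61 genes (24.6%) had such a region, against 32.9% of all coding genes. Whether genes were expressed or lay in open chromatin in these cells was not matched between the members and all genes.

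The members held 65 FOS regions, of which 3 were nearest to a pair of members at once and 1, at the shared end of Isg20l2 and Rrnad1, also to a gene outside the families. Of the 61 genes, 21 had 1 region, 10 had 2, 3 had 3, 3 had 4, and Ifitm10 had 6. The farthest region given to a member lay 42345 bp from Ifi204 and scored 9.70 with 1 call. Just outside the 100 kb limit, the region nearest to Oas1d lay 102255 bp away and was given to Oas1c. Per gene with a FOS region, the median was 1 region in the members and 2 in all coding genes. Their bodies were also shorter, with a median of 16195 bp in members with a FOS region and 26498 bp in all genes with a FOS region.

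**Figure D1:**
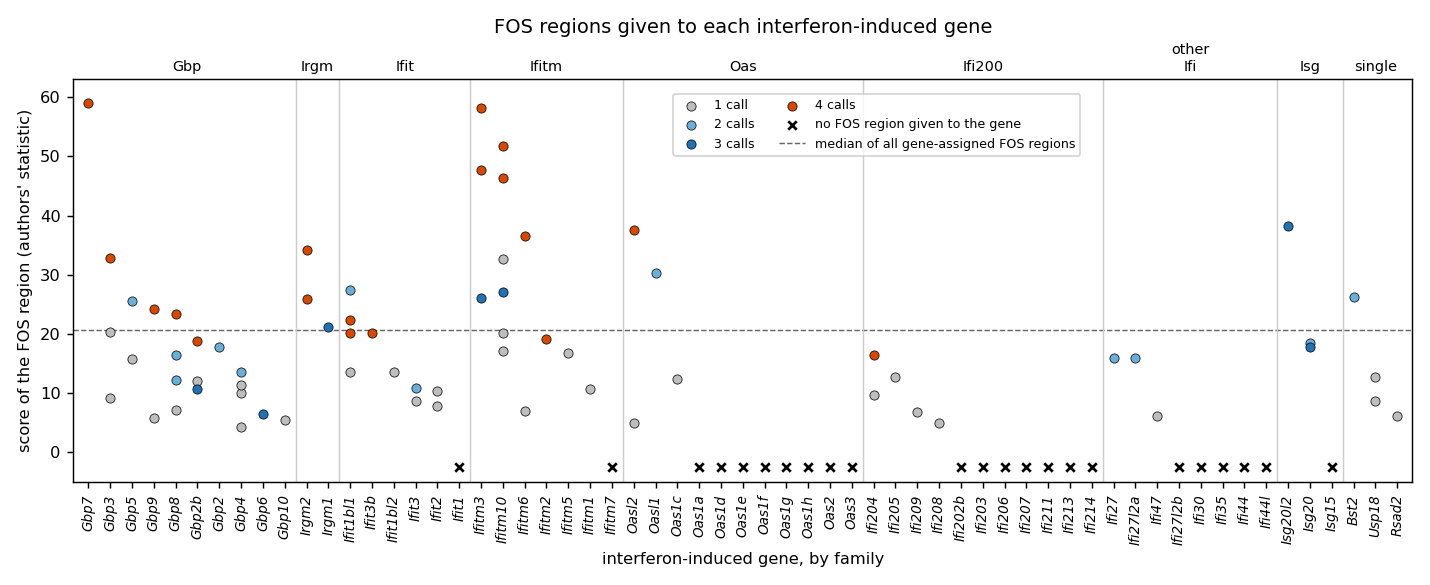
Scores of the FOS regions given to each of the 61 interferon-induced genes, grouped by family, with the colour for the number of calls; a cross marks a gene with no FOS region, and the dashed line is the median of all gene-assigned FOS regions (20.6). Gbp7 (59.0), Ifitm3 (58.1) and Ifitm10 (51.7) stand above 50, and crosses fill most of the Oas and Ifi200 families.

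The guanylate-binding proteins are interferon-inducible GTPases that assemble on vacuoles and on bacteria. Their 10 genes lie in a group of 5 on chromosome 3 and a group of 5 on chromosome 5, and together they held 22 FOS regions with a median score of 12.8 (4.33 to 59.0), 5 of them from 4 calls and 10 from a single call. Gbp7 had the highest score of all the families. Its only region, chr3:142530059-142530387, was 328 bp wide, came from 4 calls, scored 59.0 and had its centre 113 bp upstream of the start, within the window printed above. Of all FOS regions, 2.71% scored as high or higher, and of those with 4 calls 11.6%.

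On chromosome 3 the other Gbp genes had lower scores. Gbp3 had 3 regions, and the leading region (chr3:142560431-142560768, 337 bp) scored 32.8 with 4 calls and lay inside the gene, 243 bp downstream of its nearer annotated start. The leading region of Gbp5 (chr3:142496559-142496879, 320 bp) scored 25.5 with 2 calls, 215 bp upstream of the start. Gbp5 is known to promote assembly of the NLRP3 inflammasome. Gbp2 had 1 region of 17.8 with 2 calls, 83 bp upstream of its start. Gbp2b, also known as Gbp1, had 3 regions of 10.7 to 18.8, none within 1 kb of its start.

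Between the outermost gene ends the median score was 10.7 over 10 regions of the group on chromosome 5 and 18.2 over 8 regions of the group on chromosome 3. The 5 genes on chromosome 5 had no entry in the promoter table. The leading region of Gbp9 (chr5:105110231-105110568, 337 bp) scored 24.2 with 4 calls and lay 42 bp outside the gene, and its other region scored 5.78 with 1 call. The leading region of Gbp8 (chr5:105011623-105011981, 358 bp) scored 23.4 with 4 calls, 711 bp outside the gene. Gbp4 had 4 regions of 4.33 to 13.5, and the weakest, 34162 bp away, was the lowest of all the members' regions. Gbp6 had a single region of 6.41 and Gbp10 a single region of 5.37. The group on chromosome 3 thus held the 2 highest scores of the family, and both groups held 4-call regions.

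The Irgm genes encode immunity-related GTPases that regulate other members of their class on membranes. Irgm2 had 2 regions, both of 4 calls. The higher (chr11:58224325-58224679, 354 bp) scored 34.2 and lay 1719 bp outside the gene at the end away from its start. The lower (chr11:58214658-58215013, 355 bp) scored 25.9, 142 bp upstream of the start. Irgm1 had 1 region (chr11:48872276-48872645, 369 bp) of 21.2 with 3 calls, 1040 bp upstream of its start.

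The Ifit proteins bind viral RNA and block its translation. All 6 Ifit genes lie within 112 kb of chromosome 19, and each had a FOS region centre within 1 kb of an annotated start. The scores were modest, with a median of 12.2 over 8 regions (7.85 to 27.5). The leading region of Ifit1bl1 (chr19:34601959-34602279, 320 bp) scored 27.5 with 2 calls, and another at its start scored 22.3 with 4 calls. Ifit3b had 1 region of 20.1 with 4 calls, 125 bp upstream of its start. At its near-copy Ifit3 the region 226 bp upstream scored 10.8 with 2 calls, and at Ifit2 the region 53 bp upstream scored 10.3 with 1 call. A region of 13.6 with 1 call lay between the divergent starts of Ifit1bl2 and Ifit1, 139 bp upstream of Ifit1. It was given to Ifit1bl2 and Ifit1bl1 because the annotated body of Ifit1bl1 spans 70094 bp and covers it, so Ifit1 counts above among genes without a region.

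The Ifitm proteins sit in membranes and block the fusion of enveloped viruses. Of the 7 genes, 6 had FOS regions, and these 14 regions had a median score of 26.6 (7.02 to 58.1), with 6 from 4 calls. Ifitm3, which restricts influenza virus, had 3 FOS regions, none within 10 kb of the gene. The highest (chr7:140997819-140998165, 346 bp) scored 58.1 with 4 calls, 11598 bp outside the gene, and 2.86% of all FOS regions scored as high or higher. The others scored 47.7 with 4 calls at 10093 bp and 26.1 with 3 calls at 18775 bp. These 3 regions lie between Ifitm1 and Ifitm3, so nearest-gene assignment decides which of the genes they count for.

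Ifitm6 had 2 regions, the higher of which (chr7:141016804-141017124, 320 bp) lay 72 bp upstream of its start and scored 36.6 with 4 calls; the other scored 7.02 with 1 call. The higher region lay nearer to the start of Ifitm3, at 6220 bp upstream, than the regions given to Ifitm3. Ifitm2 had 1 region of 19.2 with 4 calls, Ifitm5, a gene known from bone, 1 of 16.7 with a single call, and Ifitm1 1 of 10.7 with a single call, all on the far side of the gene from its start. Ifitm10 lies apart from the cluster and had 6 regions, all inside its body of 47945 bp. Its leading region (chr7:142342069-142342551, 482 bp) scored 51.7 with 4 calls, and 4.60% of all FOS regions scored as high or higher. A second 4-call region of Ifitm10 scored 46.4, and the region at its start, 6 bp upstream, scored 20.1 with 1 call. Ifitm7 was given no region, although a region of 21.3 with 3 calls lay 111 bp upstream of its start, because the neighbouring gene Bmerb1 took it.

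Oligoadenylate synthetases detect double-stranded RNA and make the messenger that activates RNase L. Here the higher scores stood at the Oas-like genes. Oasl2 had 2 regions, and the higher (chr5:114916772-114917096, 324 bp) scored 37.6 with 4 calls, 4689 bp outside the gene between Oasl2 and Oasl1. Oasl1, an inhibitor of IRF7 translation in mice, had 1 region (chr5:114921924-114922262, 338 bp) of 30.3 with 2 calls, 1147 bp upstream of its start. Of the other 9 genes, which lie together over 191 kb of chromosome 5, Oas1c alone had a region, with a score of 12.4 and 1 call, 49 bp upstream of its start. Oas2, Oas3, Oas1a, Oas1d, Oas1e, Oas1f, Oas1g and Oas1h had none, and for them the region at Oas1c was the nearest, 17033 bp from Oas1e and up to 102255 bp from Oas1d.

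The Ifi200 genes of chromosome 1 encode PYHIN proteins, relatives of the DNA sensor AIM2. Ifi204, a DNA sensor that acts upstream of STING, had the strongest region, of 16.4 with 4 calls, 16 bp outside the gene, and a second of 9.70. Ifi205 had 1 region of 12.7, Ifi209 1 of 6.72 located 75 bp upstream of its start, and Ifi208 1 of 4.98, each from a single call. Ifi202b, Ifi203, Ifi206, Ifi207, Ifi211, Ifi213 and Ifi214 had none. A 4-call shared region of 30.5 lay 16568 bp from Ifi206, nearer to Aim2, which took it. All 5 regions of the Ifi200 family scored below the median of all FOS regions.

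Among the other Ifi genes, Ifi27 and Ifi27l2a overlap and took the same region of 15.9 with 2 calls, and Ifi47, an immunity-related GTPase, had 1 of 6.19 with a single call, 82 bp upstream of its start. Ifi27l2b, Ifi30, Ifi35, Ifi44 and Ifi44l had none. Ifi44 and Ifi44l stood farthest from any FOS region, at 355716 and 342735 bp. By contrast a 4-call region of 39.3 lay 1779 bp upstream of Ifi30, which encodes a lysosomal thiol reductase of antigen processing, and was given to Pik3r2. Another 4-call region of 43.7 lay 6118 bp upstream of Ifi35 and was given to Rpl27. Of the 23 members without a FOS region, 6 had one within 10 kb of the body that a nearer gene took, and 17 did not.

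Isg15 encodes the ubiquitin-like modifier that interferons induce, and Usp18 the protease that removes it and dampens signalling at IFNAR. Isg15 was given no region; the nearest to its body, of 22.1 with 1 call at 1514 bp, was given to Agrn. Usp18 had 2 single-call regions of 12.8 and 8.67. Isg20, an exonuclease, had 2 regions of 18.5 and 17.8, and its nucleolar relative Isg20l2 had 1 (chr3:87930111-87930519, 408 bp) of 38.2 with 3 calls, whose centre lay 1 bp from the start and which it shares with Rrnad1. Bst2, or tetherin, which holds budding virions at the cell surface, had a region (chr8:71537393-71537771, 378 bp) of 26.3 with 2 calls, 110 bp upstream of the start. Rsad2, or viperin, which makes a chain-terminating nucleotide, had a region of 6.19 with 1 call, 3953 bp upstream of its start.

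The loci differed in how densely FOS regions lay between their outermost gene ends. The density was 7.36 regions per 100 kb in the Ifitm cluster, 7.12 in the Ifit cluster, 5.67 in the Gbp group on chromosome 3, 4.88 at Oasl2 and Oasl1, 4.28 at the Ifi27 genes and 3.53 in the Gbp group on chromosome 5. It was 0.738 and 0.670 in the Ifi200 loci, 0.523 in the Oas2 to Oas1d cluster and 0 at Ifi44 and Ifi44l. From the first to the last coding gene of every chromosome it was 1.17 per 100 kb, which includes long stretches without genes. Inside gene bodies alone it was 2.66 per 100 kb in the members, against 1.79 in all coding genes.

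**Figure D2:**
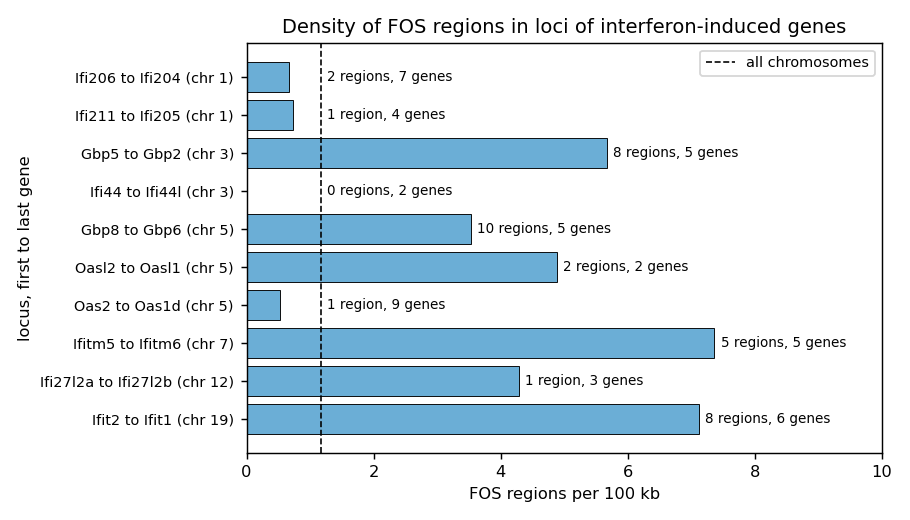
FOS regions per 100 kb in the 10 loci that hold 2 or more interferon-induced genes, from the first to the last gene end, with the number of regions and genes beside each bar and a dashed line at the value over all chromosomes (1.17). The bars run from 0 at Ifi44 and Ifi44l to 7.36 in the Ifitm cluster, and 4 loci lie below the line.

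FOS regions of the members lay close to gene ends more often than FOS regions as a whole. Of the 65 regions, 30 (46.2%, 33.7 to 59.0) had their centre within 1 kb of an end of a coding gene, against 23.3% of 29688 gene-assigned FOS regions. A further feature was the side of the gene: 19 (29.2%, 18.6 to 41.8) lay outside the body by up to 1 kb, against 8.93% of all gene-assigned regions, while 25 (38.5%, 26.7 to 51.4) lay inside the body, against 62.4%. The background lies outside the interval for all 3 shares. The shorter bodies of the members leave less room for regions inside, and the part of gene length in these shares was not tested.

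Starts with strand came from the promoter table, which held 48 of the 61 members and 17492 coding genes. A FOS region centre lay within 1 kb of a start in 21 of 48 members (43.8%, 29.5 to 58.8), against 34.3% of all coding genes, and inside such a promoter window in 18 of 48 (37.5%, 24.0 to 52.6), against 20.8%. The first background lies inside its interval and the second below it. These 21 genes shared 20 regions, and the region was upstream of the start in 18 of 21 (85.7%), against 56.8% of the 6001 coding genes with such a region. The regions came from 4 calls in 6 of 21 (28.6%), against 17.8%, and their median score was 20.1, against 25.0.

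**Figure D3:**
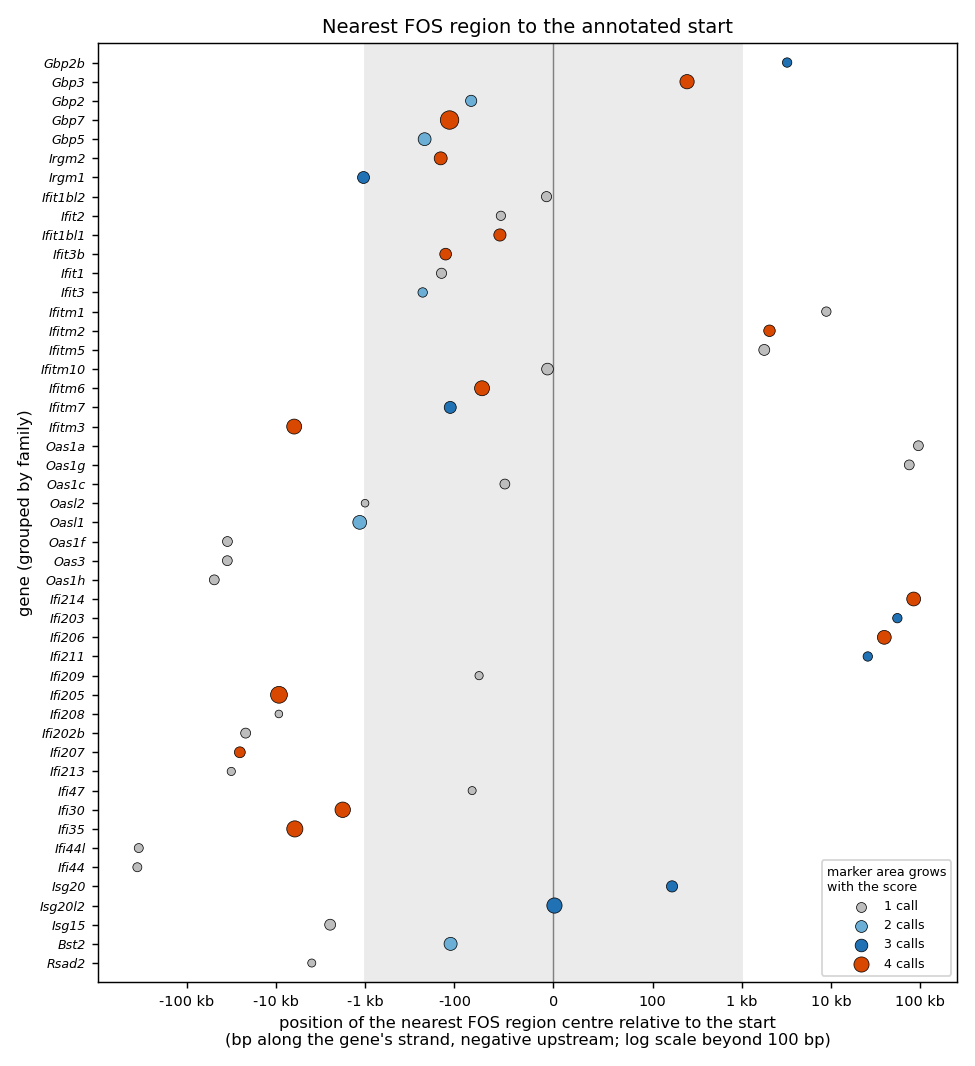
Position of the nearest FOS region centre relative to the annotated start for the 48 interferon-induced genes with a promoter entry, in bp along the gene's strand with upstream to the left, coloured by calls and sized by score, whichever gene the region was given to. In the shaded 1 kb on either side stand 21 genes, 18 of them with the region upstream, and all 6 Ifit genes among them.

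Scores of the members' regions were on the low side of the list. Their median was 16.5 (4.33 to 59.0), against 20.6 (up to 142) in all gene-assigned FOS regions, and 23 of 65 (35.4%, 23.9 to 48.2) reached the median of all FOS regions, against 51.2%. The calls were spread as 46.2% from 1 call, 16.9% from 2, 10.8% from 3 and 26.2% from 4 in the members, and as 39.2%, 20.6%, 17.2% and 23.0% in all gene-assigned regions. Each all-region share lies inside the interval of the members. Within each number of calls the member median was the lower: 9.85 against 12.9 at 1 call, 17.8 against 19.6 at 2, 21.2 against 24.9 at 3 and 32.8 against 35.7 at 4. The highest score per gene had a median of 18.1 in members, against 25.2 in all genes with a FOS region.

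**Figure D4:**
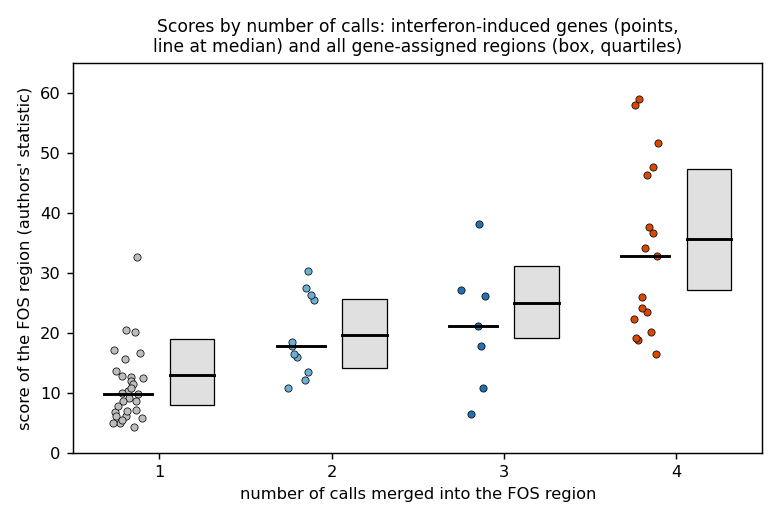
Scores of the 65 FOS regions of interferon-induced genes (points, with a line at the median) by number of calls, each beside a box with the median and quartiles of all 29688 gene-assigned FOS regions. The medians of the points are 9.85, 17.8, 21.2 and 32.8 from 1 to 4 calls, each below the line of its box.

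ISRE matches were frequent at the starts of these genes. Of the members' 57 windows, 30 (52.6%) held an ISRE match, against 3.35% of the 21263 windows of all coding genes. AP-1 matches stood in 14 of 57 (24.6%), against 6.99%, and GAS matches in 11 (19.3%), against 7.69%. A kappaB match, searched as GGGA and TTTCC with any 1 base between them, stood in 1 window (1.75%), that of Gbp5, against 0.423%. Both an ISRE and an AP-1 match stood in 9 windows (15.8%), against 0.320%. The 12 members with an AP-1 match were Gbp2, Gbp2b, Ifi203, Ifi209, Ifi35, Ifit3, Ifit3b, Ifitm3, Ifitm10, Irgm1, Oas3 and Rsad2. A match is a description of letters and not evidence that a factor binds there.

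Windows were also split by whether they held a FOS region centre. Among the members, AP-1 matches stood in 6 of 20 windows with a FOS centre and in 8 of 37 without, and ISRE matches in 12 of 20 and in 18 of 37. In all coding genes AP-1 matches stood in 5.21% of windows with a FOS centre and 7.39% of windows without, and ISRE matches in 3.91% and 3.23%. FOS regions away from starts could not be searched, since no genome sequence was used here.

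In single promoters the motifs lay at different distances from the FOS centre. At Gbp2 an AP-1 match lay 99 bp upstream of the start, 16 bp from the FOS centre, and an ISRE match 29 bp from it. At Ifit3b the AP-1 match was 40 bp from the FOS centre and the ISRE matches were 24 and 58 bp from it. The window of Gbp7, which had the strongest region, held no AP-1 match; its GAS matches lay 11 and 30 bp and its ISRE match 65 bp from the FOS centre. Irgm2 likewise held no AP-1 match, with GAS at 71 bp and ISRE at 83 bp. At Bst2 overlapping ISRE matches lay 9 and 15 bp from the FOS centre with a GAS match at 22 bp. The window of Isg15 held 3 overlapping ISRE matches, centred 61 to 73 bp upstream of the start, and no FOS region.

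Some windows are nearly the same sequence. Aligned over at least 200 columns, 9 pairs among 12 members were at least 80% identical. Ifit3 and Ifit3b shared 94.5% of their aligned bases, and both had a FOS region, of 10.8 and 20.1. The pairs among Ifi206, Ifi208 and Ifi213 shared 98.5% to 98.9%, and none of these windows held a FOS centre. Ifi214 and Ifi209 shared 95.7%, with a FOS centre in the window of Ifi209 alone. The other pairs were Ifi207 with Ifi211, Ifi207 with Ifi205, Ifi211 with Ifi205, and Oas1g with Oas1a, at 86.1% to 93.1%. How reads that match several copies were treated is stated in no source used here, so scores at these copies, and the lack of regions at Ifi200 and Oas1 genes, are uncertain.

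No member was given a shared region: 0 of 61, against 4.34% of all coding genes. A count of 0 allows a share of up to 4.92%, taken as 3 counts of the total, and the exact interval runs up to 5.87%. A lower share than the background is therefore not detectable with this number of genes. The IL-33 list reached 1 of 61 members (1.64%, 0.0415 to 8.80), against 5.64% of all coding genes, a value inside the interval. The region was given to Ifitm3 (chr7:140991188-140991688, 500 bp wide, score 0 because no FOS peak was in it), 18152 bp outside the gene. Its centre lay 623 bp from that of the FOS region of 26.1 at Ifitm3.

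Regions of the IL-33 list lay in the wider neighbourhood of some members, at shares near those of all coding genes. Counting every gene within 100 kb of a region, and not the nearest alone, 14 of 61 members (23.0%) had an IL-33 list region, against 19.1% of all coding genes, and 9 of 61 (14.8%) had a shared region, against 14.7%. These were 10 distinct regions, 4 of them shared, given to Aim2 (30.5, 4 calls), Pgghg (22.7, 3 calls), Ch25h (19.3, 3 calls) and 4930438A08Rik (18.6, 1 call). The region at Pgghg lay 1780 bp from Ifitm5 at the edge of the Ifitm cluster, and accounts for 5 of the 9 members. An IL-33 list region without a FOS peak lay 6125 bp from Bst2 and was given to Ccdc194. The median distance from the gene body to the nearest IL-33 list region was 271507 bp in members, against 486184 bp in all coding genes. Members of a locus can have the same nearest region, so these distances are not independent, and the difference was not tested.

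Other genes of the pathway were given FOS regions to different extents. The shares over all coding genes were 50.6% with a FOS region and 17.5% with one of 4 calls. Of 9 interferon ligand genes, 2 had a FOS region (22.2%): Ifnb1, whose highest region scored 43.0 with 4 calls at 14766 bp, and Ifng, with 8.71. Of 20 genes for receptors and signalling, 18 had one (90.0%), 14 with 4 calls. Irf1, Irf8, Jak2 and Ptpn6 had a shared region. The leading scores of the list came from regions that were not shared. They were 90.4 for Ifnar2, at 17393 bp, and 64.1 for Ifnar1, at 11741 bp, the chains of the type I receptor. Nearest to the starts, a region of 19.9 lay 63 bp downstream at Ifnar2 and one of 63.7 lay 165 bp upstream at Ifnar1. Ptpn6, a phosphatase that dampens such signals, had a region of 61.5 inside the gene. Irf3 and Stat2 were given no FOS region, although a FOS region centre lay 93 bp upstream of Stat2. All 15 nucleic acid sensors and adaptors had a FOS region, led by Ticam1, the adaptor of TLR3, with 78.4 at 2910 bp. Aim2 had the only shared region of that list, 1 of 15 genes.

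A further list held other interferon-induced genes, and 38 of its 40 entries matched a gene. Of these, 32 (84.2%) had a FOS region, against 50.6% of all coding genes. With 4 calls there were 9, and Ccl5 and Ly6e had shared regions. Ccl5, a chemokine, led with a region of 84.3 and 4 calls, 19921 bp outside the gene. B2m, Cxcl9, Cxcl10, Ddx60, Iigp1 and Tap1 had none, though a FOS region centre lay 149 bp upstream of Cxcl10. The median of the highest score per gene was 18.1 in the family members, 25.8 in the ligands with a region, 43.5 in receptors and signalling, 28.4 in sensors and 21.6 in the other interferon-induced genes. These are counts over hand-made lists, and no difference between them was tested.

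The label of the cells was set against marker genes by the same assignment. Of all coding genes, 50.6% had a FOS region and 17.5% had one of 4 calls. FOS regions were given to 11 of 12 microglia markers, 10 of them with 4 calls and P2ry13 being the marker without, with a median highest score of 57.9. Neuron markers had 1 of 10, with a score of 4.13. Endothelium markers had 4 of 4, 3 of them with 4 calls, and their median highest score of 55.7 was near the microglia value. Astrocyte markers had 3 of 6 and oligodendrocyte markers 3 of 5, with medians of 28.6 and 37.2. Monocyte and neutrophil markers had 2 of 6 and lymphocyte markers 2 of 5, with medians of 32.2 and 19.0. A FOS region near a gene is not its expression, and the part of other cells in the members' regions was not tested.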

How the data were processed

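FOS ChIP and input libraries of microglia from 4 mice were aligned with Bowtie2 and analysed with HOMER, per the submitters' processing notes, which name the builds mm10 and GRCm38 and no versions. The authors deposited 1 table, made with HOMER mergePeaks per the file headers, with a score per region (a statistic averaged over merged peaks) and, as another deposited column, the number of merged peaks. Peak thresholds, input use and filters are stated in no source used here. The score was multiplied by the number of merged peaks and divided by the number of FOS peaks, since peaks of the IL-33 list entered that average as 0. The depth per sample is unknown.

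Region centres were joined to RefSeq gene bodies, and motifs were searched in 57 promoter windows of 48 members, in Python 3.11.15 with pandas 2.3.3, numpy 2.4.6, scipy 1.17.1 and Biopython 1.88. Figures used matplotlib 3.10.9. Joining and motif search were tested on simulated data, and the restoring of the score was not. Counts and medians stand beside those of all coding genes or regions. Members and lists were chosen with earlier results of these data known. Full values were given for members with an IL-33 list region and for the 15 with the highest score, and other genes by family. Alternatives changed the distance, calls, score minimum, assignment and membership.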

Additional observations from a re-analysis of the deposited data

How the results depend on the processing

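Of 30 alternatives over the counts, medians and shares of the members, 18 stayed near the reported value and 12 did not. Near meant within a factor of 1.5 for counts and medians, and within the interval for shares. In the main setting 38 members had a FOS region (62.3%, against 50.6% of all coding genes). Of 4 calls 14 had one (23.0%, against 17.5%), and scoring at or above the median 15 had one (24.6%, against 32.9%). Within 1 kb of an annotated start 21 of 48 with a promoter entry had one (43.8%, against 34.3%). Against 65 FOS regions, 17 were of 4 calls, 35 of 2 or more calls and 23 at or above the median score. The median score was 32.8 in 4-call regions, against 16.5 in all regions of the members. Members with a shared region numbered 0 in the main setting, against 4.34% of all coding genes. When a FOS region within 1 kb counted as shared they numbered 1 (1.64%, against 5.04%). When every gene within 100 kb was counted they numbered 9 (14.8%, against 14.7%). Members with an IL-33 list region numbered 1 in the main setting (1.64%, against 5.64% of all coding genes) and 0 within 10 kb (against 4.60%). With every gene within 10 kb they numbered 3 (4.92%, against 5.43%), and with every gene within 100 kb 14 (23.0%, against 19.1%). The counts by annotated start and by every gene within 100 kb were added after seeing the data. These alternatives change by construction what is counted: fewer regions are kept, more genes are counted per region, regions are relabelled as shared, or the distance is taken from a start whichever gene was nearest. Without the Ifitm genes 32 of 54 members (59.3%) had a FOS region, and 35 of 57 (61.4%) without Ifitm5, Ifitm7, Ifitm10 and Isg20l2. The share of all coding genes was 50.6%. No paired analysis was possible because no column belonged to a single library. Depth is unknown, so a weak region and a missing one cannot be told apart.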
